A study of Mus musculus with 4 samples.

Results

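The genes described here encode the proteins of the cytosolic ribosome, the particle that translates messenger RNA in the cytoplasm. They were chosen by symbol, as every gene whose symbol starts with Rps or Rpl and a number, together with Rplp0, Rplp1 and Rplp2, without pseudogenes marked -ps and without the Rps6k kinases. The rule took 89 of the 26026 genes in the deposited table, 35 with a small subunit symbol and 54 with a large subunit symbol. By a list of the standard ribosomal proteins, 76 of them are canonical (30 small, 46 large) and 11 are paralogs or retrogenes. The other 2, Rpl7l1 and Rps19bp1, carry such a symbol without being proteins of the mature ribosome. No measured value entered the rule.

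Polyadenylated RNA was sequenced from mouse bone marrow-derived cells, labelled BMDC, that were grown with 100 ng/mL Flt3 ligand, a growth factor under which marrow progenitors turn into dendritic cells. The 4 libraries were Nfkb1-/- (C57/B16) cells at day 5, wild-type (C57/B16) cells at day 5, Nfkb1-/- cells at day 3 and wild-type cells at day 3, with the medium renewed at day 3. Nfkb1 encodes p105 and its processed form p50, a subunit of the transcription factor NF-kB, and the study asked how p50 and RelA act together while these cells differentiate. There was 1 library per group, so a difference between groups has no replicate check and no test, and the labels used here do not say how many animals gave the marrow. Library totals recovered from the values ran from 15255070 to 16215214 reads per library. Nfkb1 itself stood at 64.7 RPKM (reads per kilobase of transcript, scaled for library depth) in the library labelled Nfkb1-/- and 114 RPKM in wild type at day 5, and at 56.0 and 74.8 RPKM at day 3. It was thus lower in the libraries labelled Nfkb1-/- but not absent, and the sources used here do not say which part of the gene the allele lacks.

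A ribosome holds 1 copy of most of its proteins, so cells make these proteins in near-equal amounts, and in growing cells their messenger RNAs are among the most abundant. Most of these mRNAs start with a run of C and T just at the transcription start, the TOP motif, through which mTOR and the binding protein Larp1 set how strongly they are translated. The factor Myc raises the transcription of ribosomal protein genes and of the genes that assemble ribosomes. In marrow, loss of 1 copy of some of these genes causes Diamond-Blackfan anemia in humans, and RPS14 is a gene of the human 5q- syndrome.

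The start sites are shown for the genes whose genotype difference moved most between the days, described below, because the TOP motif would lie there. Each line is a 30-base window, 15 bases on either side of a start, from RefSeq (GRCm38.p6), 5′ to 3′ on the strand of the gene, with the longest run of C or T in the window in capitals where it has 5 or more bases. Where a gene had several starts, the one with the longest run was taken. Not every gene had a window to show, and the starts on a single chromosome were left out of this choice. Rpl30, Rpl21 and Rpl17, for example, are therefore missing. Of the rest, these 5 genes had the most negative movement:
Rps3a1 (chr3:86142654-86142683, minus strand): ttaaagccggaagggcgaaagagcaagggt
Rps4x (chrX:102189377-102189406, minus strand): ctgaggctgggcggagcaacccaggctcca
Rps10 (chr17:27635230-27635259, minus strand): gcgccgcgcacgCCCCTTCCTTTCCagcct
Rpl13 (chr8:123102335-123102364, plus strand): TTCCCTTTCgcctgattttgattggcgttt
Rpl39 (chrX:37085208-37085237, minus strand): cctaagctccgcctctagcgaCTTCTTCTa
These 5 had the most positive movement:
Rpl28 (chr7:4792950-4792979, plus strand): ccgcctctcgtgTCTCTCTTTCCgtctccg
Rpl11 (chr4:136053379-136053408, minus strand): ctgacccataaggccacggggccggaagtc
Rps12 (chr10:23787195-23787224, minus strand): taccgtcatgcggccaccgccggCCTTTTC
Rps26 (chr10:128626492-128626521, minus strand): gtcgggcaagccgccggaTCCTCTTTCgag
Rpl35 (chr2:39005117-39005146, minus strand): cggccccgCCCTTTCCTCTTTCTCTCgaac
These genes were picked by their values, so the windows are a description.

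Promoter entries were at hand for 68 of the 89 genes. A run of 8 or more C or T on the strand of the gene, within 20 bases of a start, was found in 32 of them, or 47.1%, against 18.4% of the 27025 genes with an entry and 19.1% of those measured here. The share was 46.2% of the 26 small subunit genes and 47.6% of the 42 large subunit genes. The sequence CCGGAAG, which holds the core bound by ETS factors, lay on either strand from 250 bases before to 50 bases after a start in 36.8% of the 68, against 9.93% of all entries and 21.6% of those of measured genes. A match is a description of these letters and not a site shown to be bound.

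Ribosomal protein genes were among the most abundant transcripts of every library, and their summed level followed the order Nfkb1-/- day 5, wild type day 5, Nfkb1-/- day 3, wild type day 3. The 76 canonical genes summed to 27281 RPKM in Nfkb1-/- cells at day 5 and 25990.5 RPKM in wild type at day 5, and to 21840.5 RPKM in Nfkb1-/- cells at day 3 and 18234 RPKM in wild type at day 3. That was 8.66% and 8.06% of all RPKM at day 5, and 6.52% and 5.79% at day 3, in the same order of genotypes. Ratios of these sums were 1.05 between Nfkb1-/- and wild type at day 5, 1.20 between them at day 3, 1.25 between day 5 and day 3 in Nfkb1-/- cells and 1.43 between the days in wild type. With 1 library each, the order has no replicate error to be set against, and in bulk RNA fewer cells of a type and less RNA per cell cannot be told apart. The family held 25 of the 100 genes with the highest mean level.

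**Figure D1:**
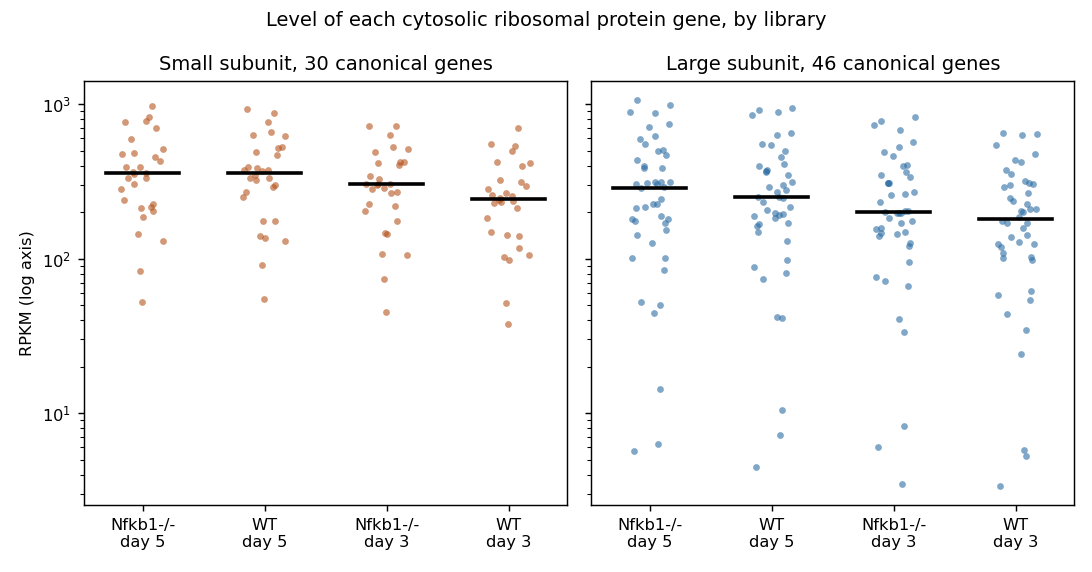
Level of the 30 small and 46 large canonical ribosomal protein genes in RPKM, on a log axis, in each of the 4 libraries, with 1 point per gene and a bar at the median. The median large subunit level was highest in Nfkb1-/- cells at day 5, at 288 RPKM, and lowest in wild type at day 3, at 180.2 RPKM, while the small subunit medians at day 5 were close, at 358 and 359.7 RPKM.

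Although the proteins are built in at equal amounts, measured transcript levels per length differed widely between members. Among small subunit genes Rps9 stood highest by mean, at 977, 874, 727 and 704 RPKM in Nfkb1-/- day 5, wild type day 5, Nfkb1-/- day 3 and wild type day 3, an order of libraries kept for all lists of 4 values below. Rps14 and Rps26 were also among the highest. Among large subunit genes Rpl4, a protein that lines the exit tunnel of the new chain, stood highest, at 1059.9, 923, 779 and 653 RPKM, followed by Rpl8, Rpl13a, Rplp1 and Rpl12. At the low end were Rpl29 (3.36 to 6.01 RPKM), Rpl21 (3.49 to 7.25 RPKM) and Rpl15 (5.27 to 14.4 RPKM), against 37.6 to 54.5 RPKM for Rps15a, the lowest canonical small subunit gene, with Rps20 and Rps24 next. Mammalian ribosomal protein genes have many processed copies elsewhere in the genome, and the sources used here do not tell how reads mapping to several places were counted, so low levels such as those of Rpl29, Rpl21 and Rpl15 are uncertain.

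The order of levels within the family was nearly the same in all libraries. Spearman's rho over the 76 canonical genes, a description with no test, ran from 0.976 between both genotypes at day 5 to 0.994 between wild type at day 5 and Nfkb1-/- cells at day 3. Small subunit genes stood higher per length than large subunit genes in each library, with medians of 358, 359.7, 303 and 244 RPKM against 288, 249, 199.9 and 180.2 RPKM. The ratio of small to large medians was 1.24, 1.44, 1.52 and 1.35.

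By the median over the family, the genotypes differed least at day 5 and the days differed most in wild type. Single genes nonetheless spread most widely between genotypes at day 5, with an interquartile range of 0.329. Differences are given as log2(RPKM + 1) of the first group minus the second, over the 85 members (35 small, 50 large) whose mean reached 1 RPKM, and a size rule of 0.5 stands in for a call. The genes left out were Rpl10l, Rpl32l, Rpl39l and Rpl3l, which had at most 8 reads in any library. The median over the 85 was 0.07 for Nfkb1-/- minus wild type at day 5, 0.30 for the same at day 3, 0.28 for day 5 minus day 3 in Nfkb1-/- cells and 0.52 for day 5 minus day 3 in wild type. Over all 11786 measured genes those medians were 0.01, 0.13, 0.04 and 0.16. Rescaling the libraries by their median ratio moved the medians of all genes to -0.02 at day 3 and 0.01 in wild type between the days. The family's median stood above that of all genes by 0.06, 0.17, 0.24 and 0.37, and after that rescaling by 0.06, 0.16, 0.23 and 0.34.

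**Figure D2:**
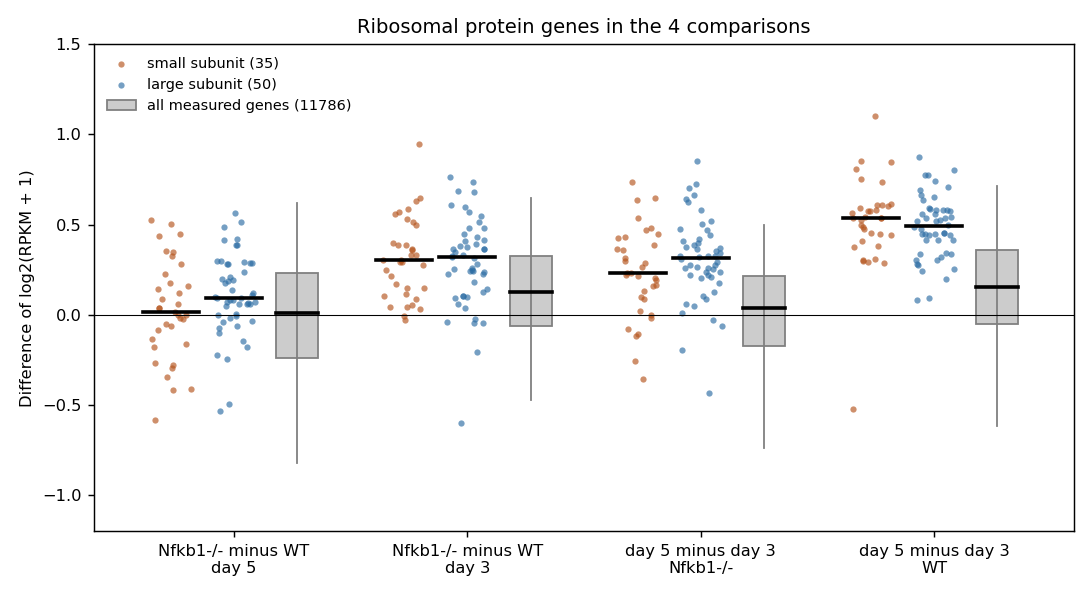
Difference of log2(RPKM + 1) of each of the 35 small and 50 large subunit symbols in the 4 comparisons, with bars at the medians. Grey boxes are the interquartile range of the 11786 measured genes and grey lines run between their 5th and 95th percentiles. The family stands highest in wild type between the days, with medians of 0.54 for small and 0.49 for large subunit genes, and closest to 0 between genotypes at day 5, with 0.02 and 0.09.

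At day 5 few of these genes differed between genotypes by the size rule, and the family split in both directions. Nfkb1-/- was above wild type for 55 of 85 genes and below it for 30, against 51.2% and 48.8% of all genes. The rule was passed upward by 4 members, against 8.54% of all genes, and downward by 2, against 11.5%, so both shares were below the background. Rpl35, which sits at the mouth of the exit tunnel, led upward with 555 RPKM in Nfkb1-/- cells and 376 RPKM in wild type, a difference of 0.56. Rps4l, a retrogene of Rps4x (5.66 and 3.63 RPKM), Rpl36 (212 and 148 RPKM) and Rps27l (80.1 and 56.3 RPKM) were higher by 0.53, 0.51 and 0.50. Rpl22l1 (0.48) and Rps2 (0.45) came next. Downward stood Rps27rt, at 329 RPKM in Nfkb1-/- cells and 493 RPKM in wild type (-0.58), and Rpl34, at 127 and 184 RPKM (-0.53). Rpl30 (-0.49), Rps27 (-0.42) and Rps3a1 (-0.34) came next.

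At day 3 nearly the whole family was higher in Nfkb1-/- cells. The difference was above 0 for 77 of 85 members, against 66.6% of all genes, and below 0 for 8, against 33.4%, and after rescaling by the median ratio it was above 0 for 60, or 70.6%, against 47.6% of all genes. The rule was passed upward by 17, against 10.8% of all genes, and downward by 1, against 4.43%. Rpl22l1 (63.3 and 36.9 RPKM), Rpl7a (40.6 and 24.0 RPKM) and Rpl29 (6.01 and 3.36 RPKM) were higher by 0.76, 0.74 and 0.68, and Rpl30, Rps27l and Rps23rg1 by 0.68, 0.65 and 0.63. Rpl21, at 3.49 RPKM in Nfkb1-/- cells and 5.79 RPKM in wild type, was the member past the rule downward (-0.60), and it rested on 105 and 164 reads. Rpl35 (-0.21), Rpl17 (-0.05) and Rps26 (-0.03) were below 0 by less, and Rps24 was level at -0.004.

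Between the days the family was higher at day 5 in both genotypes. In wild type 84 of 85 members were above 0, against 69.3% of all genes, and 44 passed the rule upward, against 13.0%. As many as 21 members lay within 0.05 of the rule in that comparison, and 13 passed it after rescaling by the median ratio, against 6.71% of all genes, when 82 were above 0, against 51.1%. Rpl15, Rps10, Rps4x, Rps20, Rpl31 and Rpl39 were higher by 0.87, 0.85, 0.85, 0.81, 0.80 and 0.78. Rps4l was the 1 member below 0 in wild type (30.7% of all genes were), at -0.52 and past the rule (against 6.7% of all genes), on 55 reads at day 5 and 81 at day 3.

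In Nfkb1-/- cells 74 of 85 members were higher at day 5, against 56.1% of all genes, and 11 were lower, against 43.9%. The rule was passed upward by 13, against 4.96%, and downward by 0, against 9.15%. Rpl35 was higher by 0.85, with 555 RPKM at day 5 and 307 RPKM at day 3, and Rps12, at 703 and 423 RPKM, by 0.73. Rpl15, Rpl21 and Rps26 were higher by 0.72, 0.70 and 0.64, so that Rpl15 was among the leading genes in both genotypes. Rps4l (-0.36), Rpl30 (-0.43) and Rpl34 (-0.20) stood lower at day 5, with Rps27rt (-0.12) and Rpl29 (-0.06). Whether the days differ between genotypes was not tested, and comparisons that share a library are not independent.

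The reads behind the members leave little counting error, with a median half-width of the 95% interval of 0.07 to 0.08 in log2. That interval of the ratio lay above 1 for 43 members and below 1 for 19 between genotypes at day 5, against 28.8% and 27.9% of all genes, and for 68 and 2 at day 3, against 40.8% and 13.8%. Between the days it did so for 67 and 5 in Nfkb1-/- cells, against 28.0% and 22.2%, and for 80 and 1 in wild type, against 43.5% and 15.2%. Members have more reads than most genes, which narrows their intervals, so these shares are not like for like.

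The genotype difference at day 5 and that at day 3 share no library, and for 28 members they had opposite signs, with Nfkb1-/- lower at day 5 and higher at day 3. That is 32.9%, against 25.4% of all genes, and it was 26 members (30.6%) after rescaling by the median ratio, against 16.0%, and 21 (24.7%) after rescaling to the same sum, against 17.9%. By subunit it held for 16 of 35 small subunit genes (45.7%) and 12 of 50 large subunit genes. Another 49 members were above 0 at both days, against 41.2% of all genes, 6 were above 0 at day 5 and below 0 at day 3, against 10.1%, and 2 were below 0 at both, against 23.3%.

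**Figure D3:**
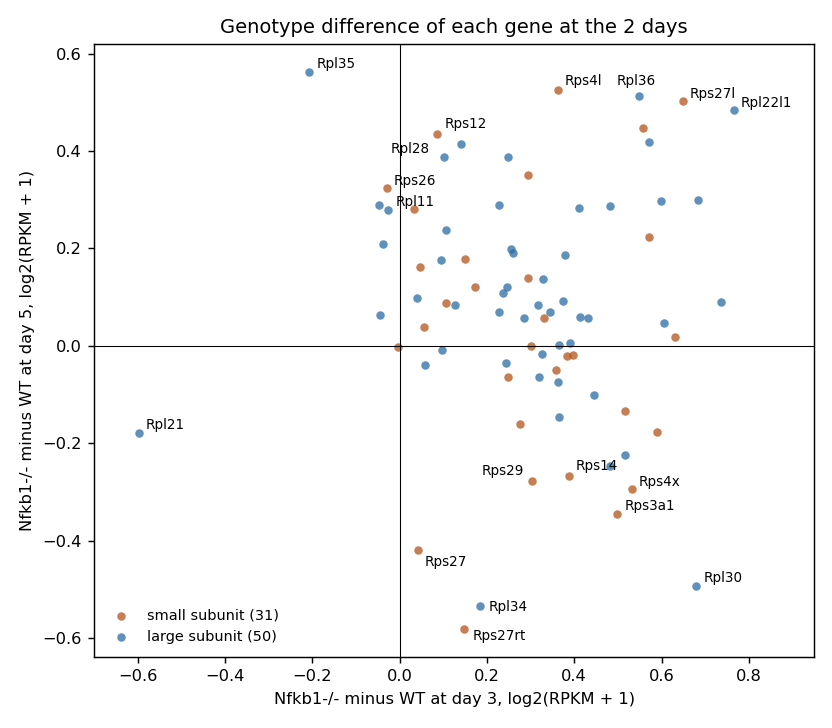
Genotype difference of 81 of the 85 members, Nfkb1-/- minus wild type in log2(RPKM + 1), at day 5 (vertical axis) and day 3 (horizontal axis), with 1 point per gene and the named genes marked. Rpl30 lies at the lower right, with -0.49 at day 5 and 0.68 at day 3, while Rpl35 lies at the upper left.

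Rpl30, a large subunit protein that in yeast represses the splicing of its own transcript, was among the members furthest on this contrast. It stood at 52.6, 74.4, 71.2 and 44.1 RPKM. The library of wild type at day 3 was thus lowest and that of wild type at day 5 highest, with both Nfkb1-/- libraries between them. Its ratio of Nfkb1-/- to wild type was 0.707 at day 5 (0.623 to 0.801, exact Clopper-Pearson 95% interval of the reads, counting error only) and 1.61 at day 3 (1.41 to 1.85). The genotype difference of Rpl30 moved by -1.17, larger than counting error and with no replicate spread to compare.

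Further members with a negative movement were Rps3a1 (-0.84), Rps4x (-0.83), Rps10 (-0.76), Rpl13 (-0.74) and Rpl39 (-0.73). Rps3a1, a protein of the small subunit platform, had 305, 387, 328 and 232 RPKM. Rps4x, an X-linked small subunit gene, had 431, 529, 425 and 294 RPKM. Both were highest in wild type at day 5, lowest in wild type at day 3 and nearly level between the Nfkb1-/- libraries. Rps14 (770.4, 927, 719.8 and 550.0 RPKM) and Rps29 (512, 619.7, 513 and 415 RPKM) had the same order of extremes.

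Other members moved the opposite way. Rpl35 stood at 555, 376, 307 and 354 RPKM, a ratio of Nfkb1-/- to wild type of 1.48 at day 5 (1.38 to 1.59) and 0.866 at day 3 (0.798 to 0.940), and its genotype difference moved by 0.77. It was the one member past the rule upward in this contrast, against 4.13% of all genes. Downward 17 passed, against 14.3% of all genes, 9 of them small and 8 large subunit genes. Rpl21 (0.42), Rps26 (0.35), Rps12 (0.35), Rpl17 (0.34) and Rps6 (0.25), the substrate of the S6 kinases, moved upward by less. Rps12, a protein of the head of the small subunit, had 703, 519.7, 423 and 398 RPKM, and Rps26, at the mRNA exit channel, had 822, 657, 528 and 539 RPKM. The movement was above 0 for 22 members and below 0 for 63, against 33.3% and 66.7% of all genes. Its median was -0.23, against -0.14 over all genes, and -0.08 against -0.01 after rescaling by the median ratio.

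**Figure D4:**
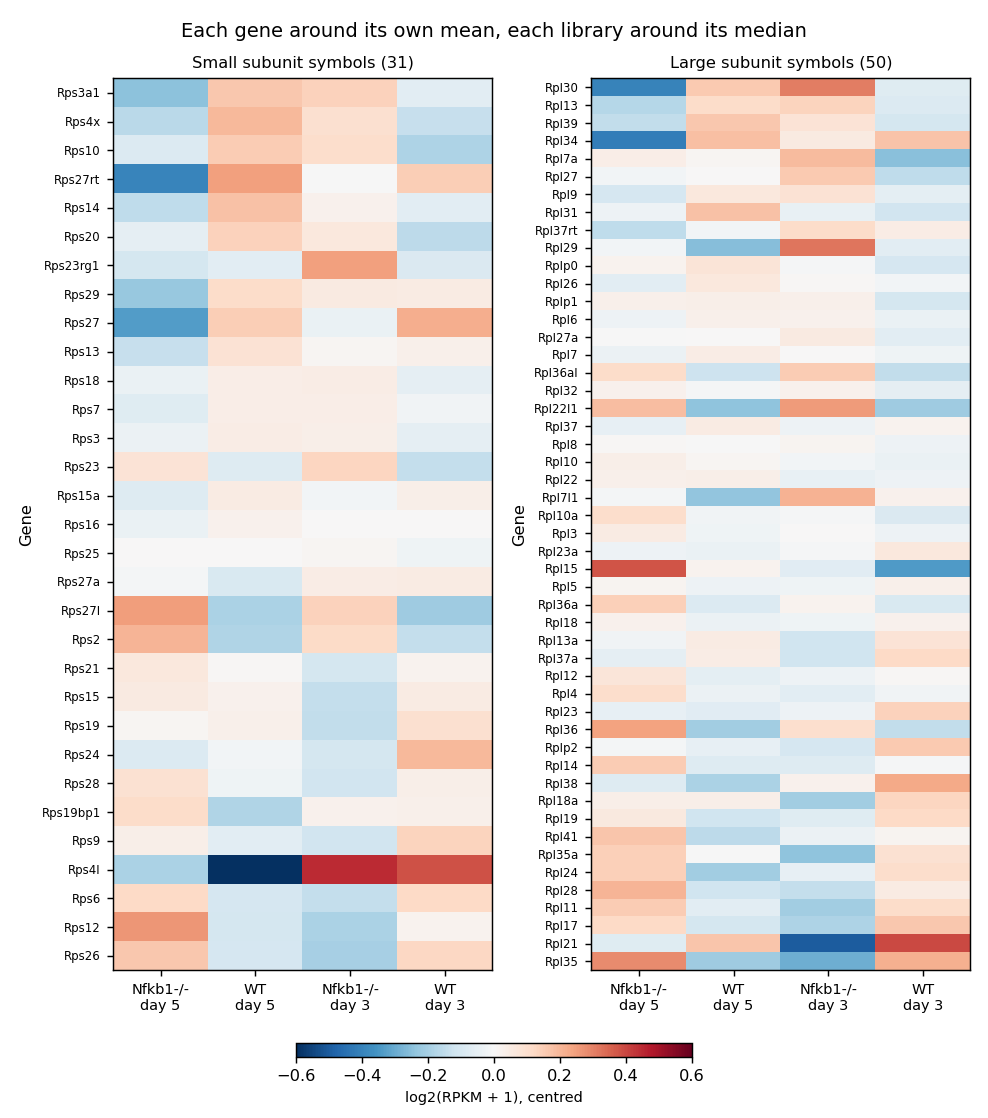
log2(RPKM + 1) of 31 small and 50 large subunit symbols in the 4 libraries, with each gene centred on its own mean and each library on the median of the family, ordered by the movement of the genotype difference between the days. Rps3a1 and Rpl30, at the top of their columns, are low in Nfkb1-/- at day 5 and high in wild type at day 5 and Nfkb1-/- at day 3, and Rps26 and Rpl35, at the foot, show the reverse.

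By the interquartile range, members kept most nearly the same proportions in wild type at day 5 and Nfkb1-/- cells at day 3. The interquartile range of their log2 difference was 0.136 for that pair of libraries, against 0.329 between the genotypes at day 5 and 0.304 at day 3. The other pairs had 0.182 (wild type, day 5 and day 3), 0.188 (Nfkb1-/- day 5 and wild type day 3) and 0.260 (Nfkb1-/-, day 5 and day 3). Over all measured genes the range was also narrowest for wild type day 5 and Nfkb1-/- day 3, at 0.341, and widest for Nfkb1-/- day 5 and wild type day 3, at 0.599. The standard deviation gave another order. Over the members it was 0.212 for wild type day 5 and Nfkb1-/- day 3, and 0.211 for wild type day 5 and day 3. Over all measured genes it was lowest between genotypes at day 3, at 0.366, against 0.418 for wild type day 5 and Nfkb1-/- day 3. These pairs share libraries, so both measures of spread are a description.

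Over all measured members, small and large subunit genes had medians within 0.11 of each other. Those of small subunit genes were 0.02 and 0.30 between genotypes at day 5 and day 3, and 0.23 and 0.54 between days in Nfkb1-/- and wild type. Those of large subunit genes were 0.09, 0.32, 0.31 and 0.49. The median movement of the genotype difference was -0.30 for small and -0.19 for large subunit genes, the widest gap. That gap, small minus large, was -0.15 with canonical genes only and also with no filter on low values. The sign of the gap at day 3 changed with the choice of members.

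The acidic stalk, made of Rplp0, Rplp1, Rplp2 and their neighbour Rpl12, recruits elongation factors to the ribosome. Its 4 genes were above 0 in all 4 comparisons, against 51.2%, 66.6%, 56.1% and 69.3% of all genes. Their medians were 0.08, 0.33, 0.34 and 0.55, and Rplp0 at day 5 (0.01) and Rplp2 at day 3 (0.04) were close to 0. After rescaling by the median ratio 1 of the 4 was below 0 at day 5 and 1 at day 3, when 49.1% and 47.6% of all genes were above 0. Rpl5 and Rpl11, which bind the ribosomal 5S RNA and restrain the p53 regulator Mdm2, went apart between genotypes at day 3 (0.24 and -0.03) and were 0.11 and 0.28 at day 5. The 17 genes of human Diamond-Blackfan anemia and the 5q- syndrome had medians of -0.003, 0.30, 0.29 and 0.57. At day 5 8 of them were above 0 between genotypes, against 51.2% of all genes, and 9 were below, against 48.8%. None passed the rule at day 5, against 8.54% of all genes upward and 11.5% downward. At day 3 4 of the 17 passed it upward, among them Rpl27 (0.61) and Rps10 (0.59). That compares with 10.8% of all genes and with 17 of the 85 members. Rps19, the gene most often mutated in that anemia, differed between genotypes by 0.04 at day 5 and 0.06 at day 3.

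Rpl22l1 and Rps27l held a larger share of the pair with their canonical partner in Nfkb1-/- cells than in wild type at both days. Rpl22l1 made up 46.3% of the summed RPKM of itself and Rpl22 in Nfkb1-/- cells at day 5 and 39.0% in wild type at day 5, and 48.9% and 40.5% at day 3. Rpl22 itself, a protein needed for T cell development in mice, had 84.7, 81.3, 66.2 and 54.2 RPKM. Rps27l, a paralog known as a p53 target, made up 26.9% and 16.2% of its pair with Rps27 at day 5 in Nfkb1-/- and wild type, and 21.7% and 15.2% at day 3. With the near-identical copy Rps27rt added to the total of the pair, these shares were 12.8% and 6.70% at day 5, and 9.55% and 6.70% at day 3. Rpl36al held 14.5% and 14.3% of its pair with Rpl36a at day 5, and 15.9% and 14.1% at day 3. Rpl22l1 had a day 5 ratio of Nfkb1-/- to wild type of 1.41 (1.24 to 1.59), and a day 3 ratio of 1.72 (1.49 to 1.98), on 311 to 622 reads per library. The longest stretch shared by Rpl22l1 and Rpl22 was 26 bases, and that of Rps27l and Rps27 was 11 bases. Rpl10l, Rpl39l and Rpl3l held under 1% of their pairs in every library.

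Retrogenes varied in the length of sequence shared with their parents. Rps27rt shared a stretch of 341 bases with Rps27, Rpl37rt 257 bases with Rpl37 and Rpl32l 94 bases with Rpl32. Rps4l shared 38 bases with Rps4x, and Rps23rg1 shared 11 bases with Rps23. These pairs were looked at after the values were seen. Reads of Rps27 and Rps27rt cannot be told apart along their shared stretch, and Rps27rt held 60.2%, 62.8%, 61.8% and 60.1% of its pair. Their 2 low values at day 5 are therefore not separate observations, and without Rps27, Rps27rt, Rpl37 and Rpl37rt 1 member passed the rule downward at day 5. Rps23rg1 stood at 1.54 to 2.93 RPKM and Rps4l at 3.63 to 7.54 RPKM. Of the symbol matches outside the ribosome, Rpl7l1, an assembly factor, was higher in Nfkb1-/- cells by 0.29 at day 5 and 0.48 at day 3, and Rps19bp1 by 0.35 and 0.29.

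Ribosomal proteins with other symbols behaved alike in part. Rack1, a scaffold on the small subunit, stood at 674, 699.6, 605 and 419.6 RPKM, and Rpsa at 170.3, 179.5, 151 and 106 RPKM. Both were near level between genotypes at day 5 (-0.05 and -0.08) and higher in Nfkb1-/- cells at day 3 (0.53 and 0.51). Fau differed by -0.11 and -0.14 between genotypes at day 5 and day 3.

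Genes that assemble ribosomes differed between genotypes by more than the ribosomal proteins at day 5. Of 32 biogenesis genes, all 32 were above 0 at day 5 and 31 at day 3, against 51.2% and 66.6% of all genes. Their medians were 0.65 and 0.54, and 0.63 and 0.39 after rescaling by the median ratio. After that rescaling 31 and 30 were above 0, against 49.1% and 47.6% of all genes. The rule was passed upward by 23 and 18 of the 32 without rescaling, against 8.54% and 10.8% of all genes. Nolc1 (0.93) and Utp20 (0.93), a nucleolar chaperone and a processome subunit, led at day 5, and Fbl (0.82) and Gnl3 (0.81) at day 3. The 17 other genes of the TOP class had medians of 0.11 and 0.26 between genotypes (0.09 and 0.09 after rescaling by the median ratio). Between days the medians of these genes were 0.35 in Nfkb1-/- cells and 0.44 in wild type (0.32 and 0.27 after that rescaling). Among them the elongation factor Eef1a1 (974, 1036, 892 and 632 RPKM) moved like Rack1, and the nucleolar chaperone Npm1 (285, 140.8, 177 and 114 RPKM) was higher in Nfkb1-/- cells by 1.01 at day 5. The 78 proteins of the mitochondrial ribosome were a list chosen after values were seen. Their median difference between genotypes was 0.40 at day 5 and 0.39 at day 3, and 0.38 and 0.24 after rescaling by the median ratio. The 12 measured Myc and growth regulators had medians of 0.18 and 0.04 between genotypes at day 5 and day 3. Of these 12 genes 4 and 3 were below 0, against 48.8% and 33.4% of all genes. Myc was higher in Nfkb1-/- cells by 0.68 and 0.71, Larp1 by 0.64 and 0.42 and Eif4ebp1 by 0.78 and 0.12. Mxd1, an antagonist of Myc, was lower (-1.56 and -0.57), as were Mxd4 (-0.66 and -0.01) and Max (-0.27 and -0.19).

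**Figure D5:**
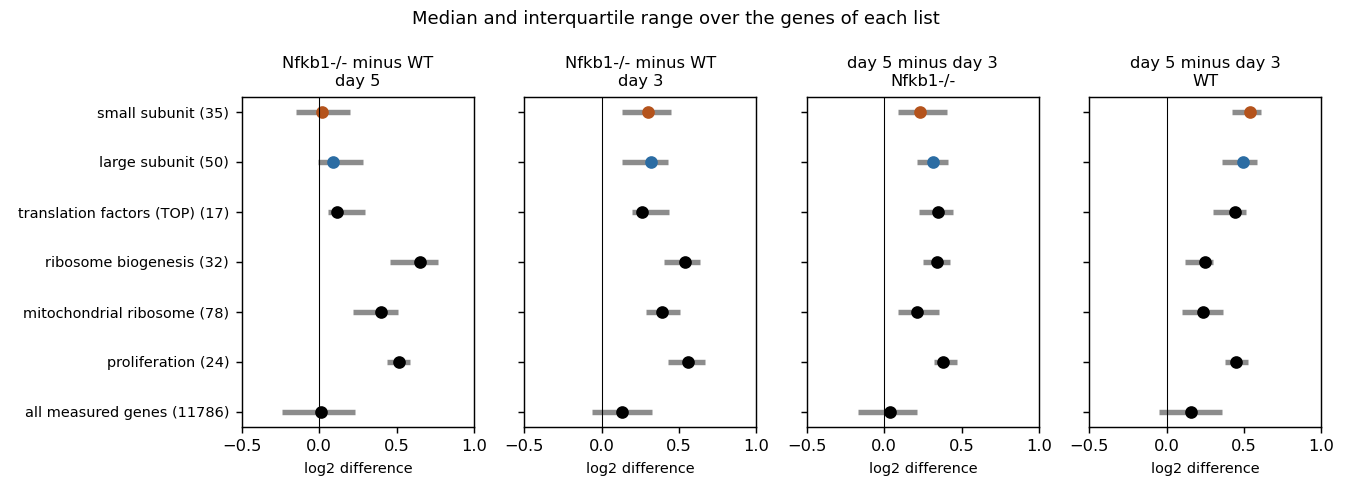
Median (point) and interquartile range (bar) of the log2 difference over the genes of each list in the 4 comparisons, with the number of measured genes in brackets. At day 5 ribosome biogenesis genes have a median of 0.65 between genotypes, against 0.02 and 0.09 for the small and large ribosomal subunits.

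Marker genes of several cell types differed between the libraries. All 18 conventional dendritic cell markers were at or above a mean of 1 RPKM and summed to 2088, 5196, 1887 and 3276 RPKM. All 16 late neutrophil, 10 plasmacytoid dendritic and 12 monocyte and macrophage markers also reached that mean. Reaching it therefore does not single out dendritic cells. The 16 late neutrophil markers summed to 3113, 14098, 24552 and 34781 RPKM, the reverse of the order of the summed ribosomal protein levels, and the 24 proliferation genes to 1504, 1059, 1113 and 785 RPKM. The 10 plasmacytoid dendritic markers summed to 363, 533, 425 and 411 RPKM, the 12 monocyte and macrophage markers to 7078, 5541, 8178 and 5972 RPKM, the 12 B cell markers to 130.3, 232, 384 and 422 RPKM with Igll1 and Vpreb1 under 1 RPKM, and the 10 T and NK cell markers to 4.50, 14.9, 15.0 and 30.6 RPKM with Cd8a, Klrb1c and Ncr1 under 1 RPKM. The part of these differences in the ribosomal protein results was not tested.

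An additive fit of genotype and day in limma, which has 1 residual degree of freedom and assumes the same genotype difference at both days, called 0 of the 85 genes for genotype and 0 for day (Benjamini-Hochberg over 11786 genes, threshold 0.05). At an unadjusted p under 0.05 there were 9 members for genotype (10.6%, against 19.3% of all genes), all higher in Nfkb1-/- cells and led by Rpl22l1 with an adjusted p of 0.143. For day there were 42 (49.4%, against 17.8%), of which 41 were higher at day 5, led by Rpl15 with an adjusted p of 0.0747. All genes gave 0 calls for genotype and 136 (1.15%) for day.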

How the data were processed

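RNA came from a trizol and phenol-chloroform extraction and went into Kapa mRNA HyperPrep libraries, per the labels' protocols. The submitters' processing notes name HISAT2, SAMtools and mm9 but no versions. For the read counter, the annotation, the use of strand and reads with several matches, the choice is not given in the sources used here. Per the file headers, the authors deposited 1 RPKM column for each library. Whole reads and library totals were recovered from the steps of these values (tolerance 0.003 reads). True read numbers may be a whole multiple of the recovered ones, which widens the intervals, and reads without molecular identifiers are not independent, so intervals cover counting error only.

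Differences were taken of log2(RPKM + 1), which understates the change of low genes, at a mean of at least 1 RPKM, without further scaling. The size rule was 0.5, with limma 3.58.1 (R 4.3.3) as support; other steps used Python 3.11.15, pandas 2.3.3 and scipy 1.17.1. Recovery and differences were tested on simulated data. The genes and lists were chosen with earlier results of these data known. Named genes are Nfkb1, the 5 members of highest and 3 canonical members of lowest mean RPKM in each subunit, the 3 most positive and 3 most negative of each subunit in each comparison, the paralogs and the listed groups, of which a few are not reported here by name; others are named to complete a list or for the sign of their differences, after their values were seen. Promoter sequences come from RefSeq (250 bases before and 50 after each start) and were matched by symbol. Alternatives were pseudocounts of 0.1 and 5, leaving out the filter, a filter at 5 RPKM, 2 rescalings, canonical genes only, no transcripts under 500 bases and 2 other limma settings; leaving out 4 near-identical copies was added after the data were seen.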

Additional observations from a re-analysis of the deposited data

Results flagged for a closer look

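In 5 of the genes reported here the Nfkb1-/- library was below wild type at day 5 and above it at day 3 by at least 0.25 in log2(RPKM + 1) each, so that the genotype difference had opposite signs at the days; with 1 library per group this was not tested. Rpl30 differed by -0.49 at day 5 and 0.68 at day 3. Rps3a1 differed by -0.34 and 0.50, and Rps4x by -0.29 and 0.53. Rps14 differed by -0.27 and 0.39, and Rps29 by -0.28 and 0.30. All 5 kept both signs under both rescalings, where the smallest day 3 value was 0.13, for Rps29. By the median ratio the day 3 values of Rps14 (0.22) and Rps29 (0.13) fell under 0.25. Without rescaling, no gene of the family had the reverse signs by at least 0.25 each. Rpl35 had them after rescaling, with 0.54 at day 5 and -0.38 at day 3 by the median ratio. By the same sum its values were 0.60 and -0.29.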

How the results depend on the processing

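No paired analysis was possible because each group has 1 library and no replicate number links libraries across groups; the additive limma fit takes the genotype difference within days. For the same reason no replicate could be left out. Of 200 recomputed values under these alternatives 37 moved, with a cause that was not tested, and the other 163 stayed within a set tolerance. For medians and subunit gaps it was the median half-width of the counting interval of a single gene, 0.07 to 0.11 in log2. That is not the counting error of a median over many genes. For summed levels the tolerance was the counting error of the summed reads, and for a count it was at most 1.5 times. The uncalled gap of small minus large subunit medians at day 3 (-0.02) changed sign, to 0.03 with no filter and 0.03 with canonical genes only. Rescaling by the median ratio gave medians of 0.14 (Nfkb1-/- minus wild type, day 3), 0.35 (day 5 minus day 3, wild type) and -0.081 (movement of the genotype difference), and 2, 6, 13 and 3 members past 0.5 upward at day 5, at day 3, between days in wild type and for the movement, against 7.76%, 5.12%, 6.71% and 6.93% of all genes. Rescaling to the same sum gave medians of 0.21 (day 3), 0.37 (between days in Nfkb1-/- cells) and -0.11 (movement), and 10, 22 and 2 members upward, against 7.33%, 8.13% and 6.37% of all genes. A pseudocount of 0.1, or no filter, gave 2 members upward for the movement; a pseudocount of 5 gave 2 upward at day 5, and 0 downward at day 3 and between days in wild type. Canonical genes only, or no transcripts under 500 bases, gave 2 upward and 1 downward at day 5; the first gave 0 downward between days in wild type, and leaving out 4 near-identical copies 1 downward at day 5. Summed canonical levels in the order Nfkb1-/- day 5, wild type day 5, Nfkb1-/- day 3, wild type day 3 were 26213, 25349, 21329.9 and 20025 RPKM by the median ratio, and 22482, 21509.5, 18096 and 15049 RPKM without the 5 highest genes. By the same sum they were 27873 RPKM in Nfkb1-/- day 5, 20987 RPKM in Nfkb1-/- day 3 and 18628 RPKM in wild type day 3. With an intensity trend limma called 19 of all genes for genotype, and 4 when robust. Total reads were alike between libraries. Recovered reads in the listed genes were 68.5% of the total in wild type at day 3, and 71.5% to 73.1% in the others. The median ratio factor was 0.911 for wild type at day 3, against 1.02 to 1.04 for the others. Both the genotype difference at day 3 and the difference between days in wild type use that library. Members with few reads, such as Rpl29, Rps4l and Rps23rg1, have wide counting intervals. No group has a second library, so none of these values has a replicate error.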
